A study of Homo sapiens with 22 samples.

Results

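The genes described here encode the core proteins of the spliceosome and the main families of RNA-binding proteins that steer it. They were chosen by symbol: protein-coding genes of the RNA-seq count table whose symbol starts with SRSF, HNRNP, SNRP, SF3A, SF3B, PRPF or U2AF, without pseudogenes. There were 73 such genes among 48162 Ensembl IDs in the table. They fell into 5 classes by prefix: 11 SR proteins (SRSF), 25 heterogeneous nuclear ribonucleoproteins (hnRNP), 12 Sm and other snRNP proteins (SNRP), 12 SF3 and U2AF subunits, and 13 PRPF proteins. The samples were Kasumi-1 cells, an established human acute myeloid leukaemia line with a RUNX1-RUNX1T1 fusion, grown in RPMI with fetal bovine serum. All groups were transduced with a lentivirus and selected with puromycin; the virus carried a control shRNA (shControl), shRNA #1 against FIP1L1 (here shRNA 1) or shRNA #2 against FIP1L1 (here shRNA 2). FIP1L1 belongs to the complex that cleaves pre-mRNAs and starts their polyadenylation. RNA-seq covered 4 biological replicates per group, 12 libraries of 12236937 to 20388437 counts; all values come from 1 cell line. The series also holds 10 3′READS libraries of poly(A) sites, not analysed here.

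Introns are removed by the spliceosome, which assembles on each intron from small nuclear RNAs and their proteins. The U1 particle marks the 5′ splice site, U2AF and the U2 particle with SF3A and SF3B mark the branch point and 3′ splice site, and the tri-snRNP with PRPF proteins then brings the catalytic parts. Sm proteins form the ring around most spliceosomal RNAs. SR proteins mostly bind exons and promote the use of nearby splice sites, hnRNP proteins often act against them, and several members of both families limit their own mRNA through exons that lead to its decay. Splicing factor genes, among them SF3B1, SRSF2, U2AF1 and ZRSR2, are recurrently mutated in myeloid neoplasms.

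FIP1L1 itself was read in every library. In CPM, counts scaled to a common library size with edgeR's TMM factors, it stood at 42.2, 38.9, 44.1 and 40.2 in the control libraries. It stood at 14.1, 14.7, 15.1 and 17.6 with shRNA 1 and at 20.2, 20.2, 19.1 and 18.7 with shRNA 2. The targeted mRNA was thus at 37.1% and 47.4% of control, with no overlap between any of the groups, and was higher with shRNA 2 than with shRNA 1 (log2 0.35 ± 0.10 SE, edgeR adjusted p = 0.00415). Markers of the labelled cells were present: all 8 genes of a Kasumi-1 and myeloid progenitor list had counts, RUNX1T1 at 185 CPM on average in control. Their summed level moved with the groups, from 17737–19860 CPM in control to 7944–10084 with shRNA 1 and 10750–13336 with shRNA 2, most of it MPO. MPO, CD34, RUNX1 and RUNX1T1 averaged lower with both shRNAs than in control. CD33 was higher with shRNA 2 (183 against 72.2 CPM) and PTPRC with shRNA 1 (128 against 76.2 CPM). KIT was level with shRNA 2 (1454 against 1449 CPM), and CD38 was low (3.06 CPM in control). The part of these changes in the results below was not tested. Summed lymphoid markers reached at most 5.21 CPM, with MS4A1 at 0 in all libraries. Stromal and epithelial markers summed to 126–153, 38.8–48.5 and 135–145 CPM in the control, shRNA 1 and shRNA 2 libraries, nearly all of it EPCAM, with COL1A2 at 0. In bulk RNA, fewer cells of a type and less RNA per cell cannot be told apart.

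The shRNA 1 libraries were less alike than those of the other groups. Between their replicates 1 and 2 on one side and 3 and 4 on the other, counts differed with a chi-square per degree of freedom of 14.1 to 29.4, against 3.59 to 7.34 within the control group and 3.89 to 6.37 with shRNA 2; replicates 3 and 4 differed by 3.91 and replicates 1 and 2 by 11.2. Fits with either pair alone as the shRNA 1 group were therefore added after seeing the data. With replicates 3 and 4 alone, 39 of the 68 members tested were lower and 7 higher with shRNA 1 (median log2 −0.31), and with replicates 1 and 2 alone 48 were lower and 6 higher (median −0.47). In edgeR, 55.3% and 53.8% of all genes tested passed in these fits. Of the 51 members called (adjusted p under 0.05) with all 4 replicates, 44 kept their call with replicates 3 and 4 alone, the exceptions being PRPF18, SF3B5, SNRPA, SNRPD2, SNRPE, HNRNPA0 and HNRNPDL. With replicates 1 and 2 alone 49 kept it, without PRPF18 and SF3A2. Members called in opposite directions with the shRNAs numbered 9 with replicates 1 and 2 alone and 4 with all. What sets these libraries apart was not tested.

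With shRNA 1, most splicing factor mRNAs fell, and most were higher with shRNA 2 than with shRNA 1. Of the 68 members with enough reads to test, 43 were lower, 8 were higher and 17 did not pass with shRNA 1 against control (75.0% called; edgeR quasi-likelihood test, adjusted p under 0.05). Over all 15834 genes tested, 57.3% were called in that comparison, 28.7% lower and 28.6% higher. The median log2 change was −0.41 over the members and 0.02 over all genes tested. With shRNA 2 against control, 18 members were lower, 14 were higher and 36 did not pass, 47.1% called against 50.0% of all genes tested (25.3% lower, 24.7% higher). Their median log2 change was 0.0055, beside 0.00048 for all genes. With no scaling beyond library totals, the split of the members with shRNA 2 became 20 higher and 13 lower. Over all 15834 genes tested it was then 4644 higher and 3355 lower, with a median of 0.082. With shRNA 1 the split of the members became 11 higher and 33 lower, beside 6315 higher and 3233 lower over all genes. The median of all genes was then 0.21 and that of the members −0.22.

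The shRNAs were also set against each other, which tests the difference itself. The same fit of all 12 libraries was used, so the control libraries entered its scaling, filter and estimate of the spread. Here 44 members were higher with shRNA 2 than with shRNA 1, 6 were lower and 18 did not pass. That is 73.5% called against 58.7% of all genes tested (29.3% higher, 29.4% lower). With only the shRNA libraries fitted, 44 members were again higher and 6 lower. The median log2 difference was 0.39 over the members and −0.02 over all genes. Of the 43 members lower with shRNA 1, shRNA 2 against control left 24 uncalled, 15 lower and 4 higher; of the 4543 genes lower with shRNA 1 in all, it left 40.0% uncalled, 44.8% lower and 15.3% higher. Read library by library, all 4 shRNA 1 libraries lay below all 4 control libraries in 36 members and above them in 6, so 61.8% of tested members did not overlap, against 48.3% of all genes. For shRNA 2 the counts were 16 below and 15 above, 45.6% against 50.2% of all genes. Between the shRNAs, 42 members had every shRNA 2 library above every shRNA 1 library and 4 the reverse, 67.6% against 52.7% of all genes. Whether the smaller loss of FIP1L1 mRNA with shRNA 2 bears on this difference was not tested.

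**Figure D1:**
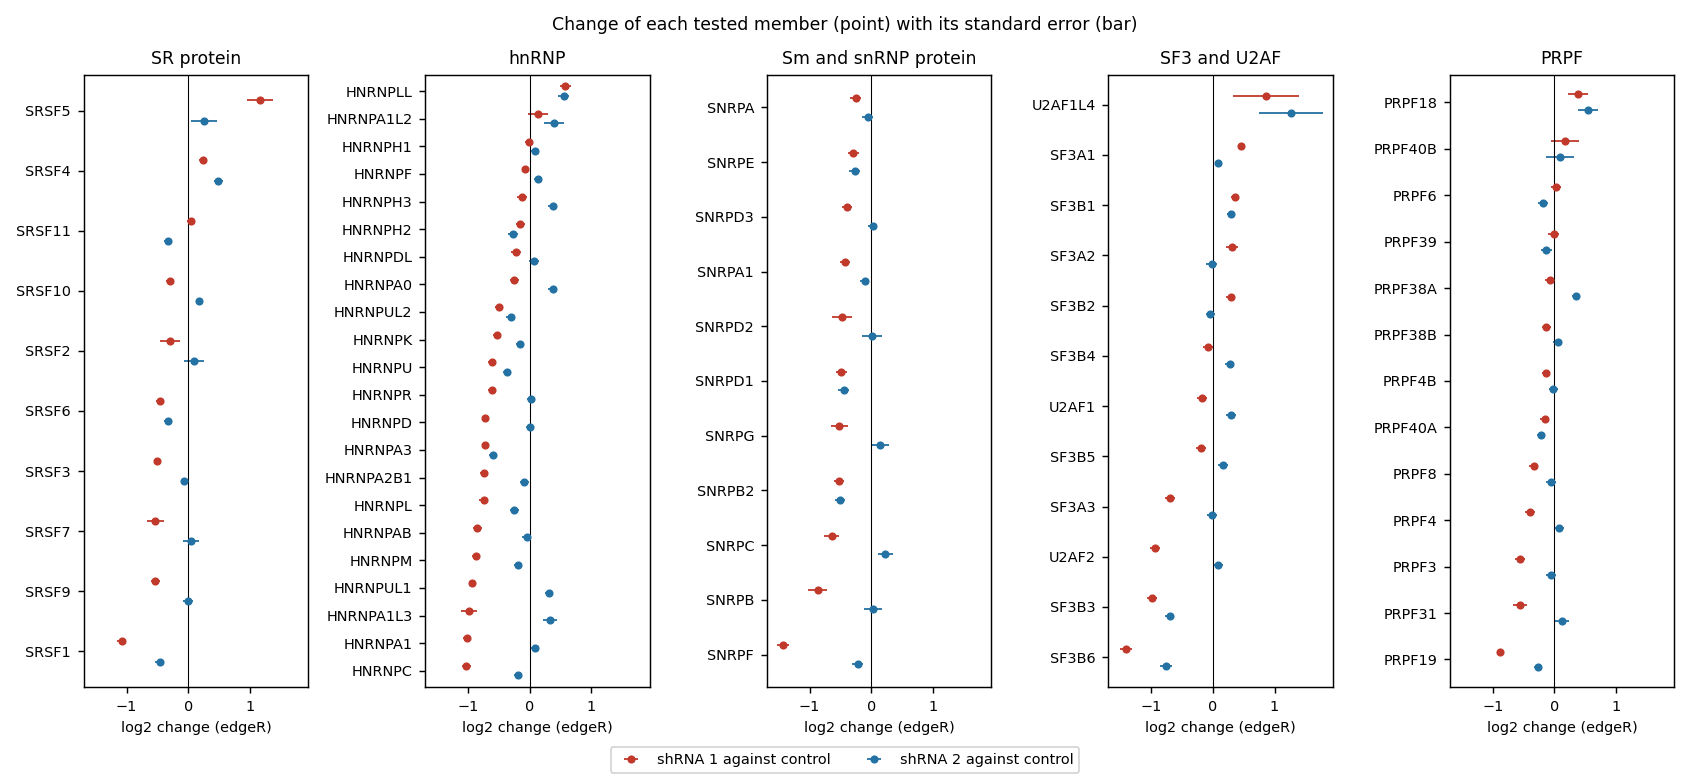
Log2 change (x axis) of each of the 68 tested members with shRNA 1 (red) and shRNA 2 (blue) against control, 4 libraries per group, points with standard errors from edgeR, 1 panel per class, members ordered by the change with shRNA 1. Red points lie left of 0 for all 11 Sm and snRNP genes and for most hnRNP genes, and in 56 of 68 members the red point lies left of the blue one.

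Both comparisons with control share the control libraries, so their calls are only set side by side. Lower with both were 15 members (12.8% of all genes): PRPF19, SF3B3, SF3B6, SRSF1, SRSF6, SNRPB2, SNRPD1, SNRPE, HNRNPA3, HNRNPC, HNRNPK, HNRNPL, HNRNPM, HNRNPU and HNRNPUL2. The shRNA 2 calls of 4 of these were lost without single libraries: SNRPE (described with its class), HNRNPC without control replicate 3 or 4 or shRNA 2 replicate 2 or 4 (edgeR adjusted p = 0.0927, 0.0545, 0.0623 and 0.0548), HNRNPM without control replicate 3 (0.0518), and HNRNPK without control replicate 3 or 4, shRNA 1 replicate 3 or any 1 shRNA 2 replicate (0.0582 to 0.179). Higher with both were 4 (12.6% of all genes): SRSF4, PRPF18, SF3B1 and HNRNPLL. Called in opposite directions were 4, each lower with shRNA 1 and higher with shRNA 2: SRSF10, HNRNPA0, HNRNPA1L3 and HNRNPUL1. Of all 15834 genes tested, 694 had this pattern and 551 the reverse, together 7.86%. Leaving out 1 library moved the count of 4 members to 7 (without shRNA 1 replicate 4) or to 2 (without shRNA 2 replicate 3). No member was higher with shRNA 1 and lower with shRNA 2.

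**Figure D2:**
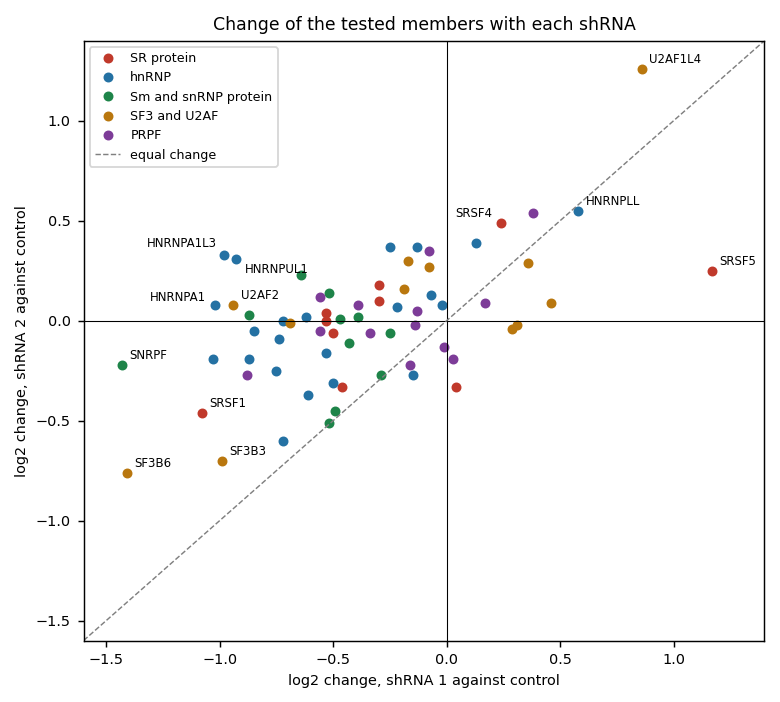
Log2 change with shRNA 1 (x axis) against log2 change with shRNA 2 (y axis) for the 68 tested members, coloured by class; both axes share the control libraries, and the dashed line marks equal change. SF3B6 and SF3B3 were low on both axes, while HNRNPA1, U2AF2 and HNRNPUL1 lay far left with y values at or above 0, and SRSF5 lay far right.

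Summed over a class, the fall with shRNA 1 was unequal. The 25 hnRNP genes together held 9530, 9501, 10378 and 9924 CPM in the control libraries, 6310, 6069, 6244 and 6499 CPM with shRNA 1 and 9718, 9530, 9403 and 9600 CPM with shRNA 2. The shRNA 1 libraries thus lay at 63.9% of control and below every other library, and the shRNA 2 libraries overlapped the control. The 12 Sm and snRNP genes were at 66.1% of control with shRNA 1 and 94.6% with shRNA 2. SR proteins were at 80.6% and 93.3%, and PRPF proteins at 80.7% and 94.2%. TMM factors were 0.915 to 0.958 in the control libraries and 1.05 to 1.09 with shRNA 1. This scaling therefore lowers the sum of every class with shRNA 1 relative to control. With no scaling beyond library totals, 4 of 10 tested SR genes and 4 of 13 PRPF genes were called lower with shRNA 1, beside 3233 of all 15834 genes tested. SF3 and U2AF subunits were at 91.3% and 96.2%; in shares of raw counts without TMM scaling, added after seeing the data, these turned to 104% and 102%. All 73 genes together took 1.54% to 1.61% of raw counts in the control libraries, 1.23% to 1.34% with shRNA 1 and 1.58% to 1.62% with shRNA 2. Without TMM scaling the shRNA 2 sum over all members was 102% of control, and with it 96.2%. Such sums follow the most abundant genes, so the single genes are given class by class below.

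**Figure D3:**
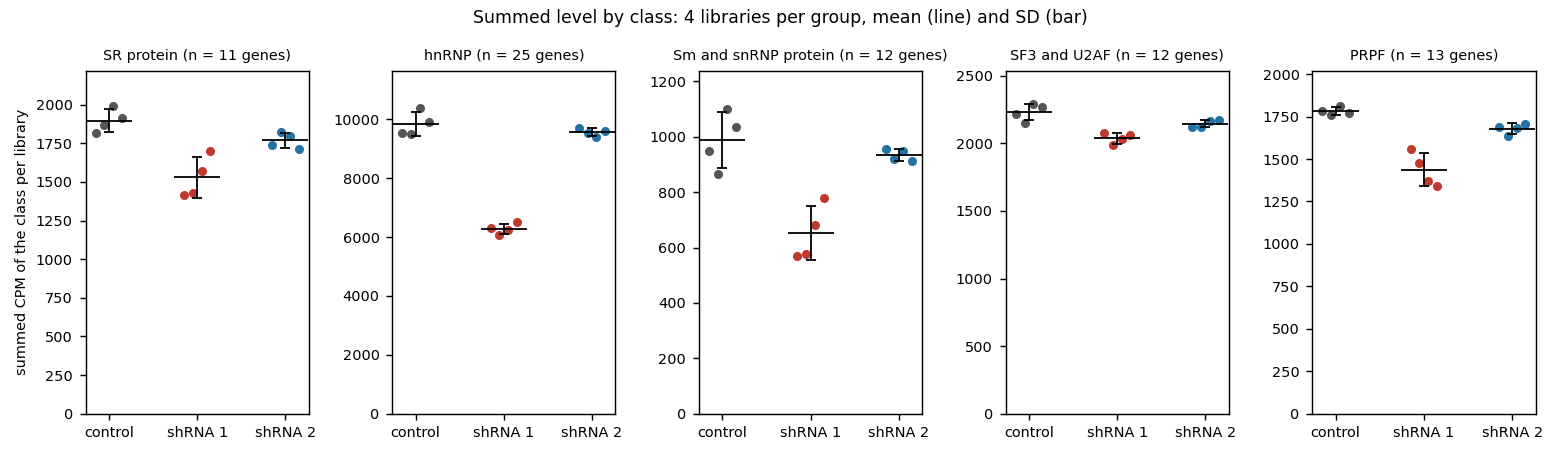
Summed CPM (y axis, from 0) of each class in the 12 libraries, points for libraries, black lines for the mean and bars for the SD of 4 libraries. With TMM scaling, all shRNA 1 points lie below all others in every panel, by little in the SR panel (highest 1701 against 1715 CPM for the lowest shRNA 2 library). Sums without that scaling are not drawn. In the SF3 and U2AF panel the groups differ least.

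Upstream sequences of 5 members with different responses are shown. SNRPF and SF3B6 had the largest decreases with shRNA 1, and PRPF19 was lower with both shRNAs. SNRPB was lower with shRNA 1 only by its calls against control, and SRSF4 was higher with both. SRSF5, with the largest increase with shRNA 1, and the members called in opposite directions are not among them. The sequences come from RefSeq on GRCh38.p14, run 5′ to 3′ on the strand of the gene, and end at the base before the start of the gene. Capitals mark CCAAT or its reverse complement ATTGG, the letters known from NF-Y sites, and CCGGAAG or its reverse complement CTTCCGG, the letters known from ETS factor sites. The windows are chr12:95858702-95858927 (plus strand) for SNRPF, chr11:60906589-60906835 (minus strand) for PRPF19, chr2:24076444-24076576 (minus strand) for SF3B6, chr20:2470854-2471039 (minus strand) for SNRPB and chr1:29181988-29182150 (minus strand) for SRSF4.
SNRPF: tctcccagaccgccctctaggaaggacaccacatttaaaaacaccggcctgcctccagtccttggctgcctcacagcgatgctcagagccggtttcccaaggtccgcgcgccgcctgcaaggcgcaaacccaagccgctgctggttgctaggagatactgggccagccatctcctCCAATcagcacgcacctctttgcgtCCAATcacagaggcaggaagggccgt
PRPF19: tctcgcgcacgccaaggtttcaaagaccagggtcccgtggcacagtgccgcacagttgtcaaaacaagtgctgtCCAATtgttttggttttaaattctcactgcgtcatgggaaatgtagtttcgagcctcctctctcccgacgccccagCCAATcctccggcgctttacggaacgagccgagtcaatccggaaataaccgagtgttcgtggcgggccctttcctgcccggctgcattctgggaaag
SF3B6: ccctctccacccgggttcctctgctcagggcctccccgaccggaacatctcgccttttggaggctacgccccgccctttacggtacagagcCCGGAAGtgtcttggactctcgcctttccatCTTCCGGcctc
SNRPB: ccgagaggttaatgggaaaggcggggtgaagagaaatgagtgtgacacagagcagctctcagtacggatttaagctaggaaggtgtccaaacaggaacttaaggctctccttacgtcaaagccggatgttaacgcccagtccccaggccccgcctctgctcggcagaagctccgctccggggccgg
SRSF4: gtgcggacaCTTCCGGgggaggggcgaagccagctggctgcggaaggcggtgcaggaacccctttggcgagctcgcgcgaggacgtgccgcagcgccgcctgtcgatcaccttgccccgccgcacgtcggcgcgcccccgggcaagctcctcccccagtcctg
SNRPF and PRPF19 each held 2 CCAAT matches in these windows, SF3B6 held 2 CCGGAAG matches, SRSF4 held 1, and SNRPB held neither. Each window was cut at the outermost exon of the gene model, so the lengths are unequal. They are 226 bases for SNRPF, 247 for PRPF19, 133 for SF3B6, 186 for SNRPB and 163 for SRSF4, and the match counts are not compared.

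The same letters were counted, on both strands, in the 250 bases before each RefSeq start. There were 86 such windows for 64 of the 73 members and 35116 for 27305 genes, whether or not these were read in Kasumi-1 cells. Shares among only the genes tested here were not counted. CCGGAAG was in 26.7% of member windows and 8.52% of all windows, CCAAT in 38.4% and 32.0%, CACGTG, the E-box word that is its own reverse complement, in 10.5% and 6.34%, and TATAAA or TTTATA in 8.14% and 10.7%.  None of the searched words contains another. Among members lower with shRNA 1, 22 of 49 windows held CCAAT (44.9%), and among other tested members 8 of 29 did (27.6%). For CCGGAAG the shares were 26.5% and 34.5%. Several windows can belong to 1 gene, and a match describes letters, not binding.

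All 11 tested genes of Sm and snRNP proteins were lower with shRNA 1, by log2 −0.25 to −1.43 with a median of −0.49; with shRNA 2 none was higher and 3 were lower. That is 100% called with shRNA 1 and 27.3% with shRNA 2, where all genes had 57.3% and 50.0%. With no scaling beyond library totals all 11 still lay below 0 with shRNA 1, and 7 passed. The largest decrease was in SNRPF (ENSG00000139343), which encodes the F protein of the Sm ring and has the first of the windows above. Its CPM were 81.8, 76.2, 101 and 93.0 in control, 28.6, 29.5, 33.2 and 39.5 with shRNA 1, and 76.1, 74.7, 73.3 and 78.3 with shRNA 2. All shRNA 1 libraries lay far below the other 8, and 3 of the 4 shRNA 2 libraries lay just below the lowest control. The change with shRNA 1 was log2 −1.43 ± 0.10 SE (37.1% of control, edgeR adjusted p = 1.8e-11), and shRNA 2 stood log2 1.21 ± 0.10 above shRNA 1 (adjusted p = 2.7e-10). Against control, shRNA 2 gave log2 −0.22 ± 0.09 (adjusted p = 0.0547), which passed in edgeR without control replicate 1 (adjusted p = 0.0485) or 2 (0.0222) and without shRNA 1 replicate 1 (0.0332), 2 (0.0485) or 4 (0.0225). It also passed with the replicate block (0.0363), with only these groups fitted (0.00753), with no filter on low counts (0.042) and with shRNA 1 replicates 3 and 4 or 1 and 2 alone (0.00961 and 0.0145). Part of the SNRPF exons overlaps CCDC38 on the other strand.

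SNRPB (ENSG00000125835), the B protein of the Sm ring, had the highest level per kilobase of exon in its class. Its CPM were 236, 208, 273 and 256 in control, 105, 107, 141 and 181 with shRNA 1, and 247, 248, 255 and 240 with shRNA 2. The shRNA 1 libraries varied widely among themselves but stayed under all others, with replicates 1 and 2 lowest. The log2 change was −0.87 ± 0.15 SE with shRNA 1 (edgeR adjusted p = 0.000235) and 0.03 ± 0.15 with shRNA 2 (adjusted p = 0.9). With shRNA 1 replicates 3 and 4 alone the former was −0.60 ± 0.10, and with 1 and 2 alone −1.20 ± 0.08 (edgeR adjusted p = 3.69e-05 and 7.03e-13). An unnamed gene model overlaps SNRPB exons on the same strand.

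SNRPB2, SNRPD1 and SNRPE behaved otherwise: they were lower with both shRNAs and level between them. SNRPB2, a U2 particle protein, had 64.6 ± 6.47, 45.1 ± 2.80 and 45.5 ± 0.823 CPM (mean ± SD, n = 4) in the control, shRNA 1 and shRNA 2 groups. Its log2 changes were −0.52 ± 0.08 and −0.51 ± 0.08 SE (edgeR adjusted p = 7.19e-06 and 1.31e-05), and the shRNAs differed by 0.01 ± 0.08 (adjusted p = 0.916). The Sm protein SNRPD1 had 92.8 ± 12.4, 66.1 ± 3.80 and 68.1 ± 5.45 CPM, and log2 changes of −0.49 ± 0.09 and −0.45 ± 0.09 (adjusted p = 3.44e-05 and 0.000131). For the Sm protein SNRPE the log2 changes were −0.29 ± 0.09 and −0.27 ± 0.09 (adjusted p = 0.0109 and 0.0196), and its libraries overlapped in both comparisons. The SNRPE call with shRNA 1 was lost without control replicate 3 (log2 −0.23, adjusted p = 0.0545). With shRNA 2 it was lost without control replicate 3 or 4 or shRNA 2 replicate 4 (log2 −0.21, −0.24 and −0.22, adjusted p = 0.0911, 0.0685 and 0.0803). Neither call passed with no scaling beyond library totals (log2 −0.10 and −0.19, edgeR adjusted p = 0.402 and 0.107), and that with shRNA 1 did not pass with its replicates 3 and 4 alone (log2 −0.17, adjusted p = 0.118).

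The remaining Sm and snRNP genes were lower with shRNA 1 and uncalled with shRNA 2 against control. They were SNRPC and SNRPA of the U1 particle, SNRPA1 of the U2 particle, and the Sm proteins SNRPD2, SNRPD3 and SNRPG, with log2 changes of −0.64, −0.25, −0.43, −0.47, −0.39 and −0.52 with shRNA 1. SNRPA alone among these 6 did not pass between the shRNAs (log2 0.19, edgeR adjusted p = 0.0831). The call of SNRPA with shRNA 1 was lost without control replicate 1 or 3 or shRNA 1 replicate 2 (adjusted p = 0.0546, 0.0795 and 0.109). That of SNRPD2 was lost without control replicate 3 or shRNA 1 replicate 1 or 2 (0.0605, 0.0704 and 0.0555), as was its call between the shRNAs without shRNA 1 replicate 1 (0.0634). The counts of SNRPN, a neuronal Sm protein, were 0 in all 12 libraries; it shares exons with SNURF.

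Among the hnRNP proteins, 16 of 22 tested genes were lower and 1 was higher with shRNA 1, with a median log2 change of −0.62. With shRNA 2, 8 were lower and 6 higher, with a median of 0.01. Between the shRNAs, 17 were higher with shRNA 2 and none lower (1 lower with no scaling beyond library totals). The shares called were 77.3%, 63.6% and 77.3% in these 3 comparisons, beside 57.3%, 50.0% and 58.7% of all genes. HNRNPA1 (ENSG00000135486), a repressor of exon inclusion in many transcripts, had the highest level per kilobase of all members in control, 428 ± 16.7 CPM per kilobase (SD, n = 4). Its CPM were 2065, 2162, 2220 and 2262 in control, 1113, 1081, 1016 and 1069 with shRNA 1, and 2437, 2184, 2213 and 2400 with shRNA 2. The shRNA 1 libraries were tight and well under the rest, whereas shRNA 2 and control overlapped. The log2 change was −1.02 ± 0.06 SE with shRNA 1 (49.1% of control, edgeR adjusted p = 2.24e-12) and 0.08 ± 0.06 with shRNA 2 (adjusted p = 0.268).

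HNRNPUL1 (ENSG00000105323), a relative of HNRNPU (ENSG00000153187) linked to RNA export and DNA repair, moved in opposite directions. Its CPM were 333, 319, 356 and 348 in control, 178, 170, 168 and 199 with shRNA 1, and 426, 423, 398 and 432 with shRNA 2. None of the 3 groups overlapped. The log2 change was −0.93 ± 0.06 SE with shRNA 1 (edgeR adjusted p = 2.75e-11) and 0.31 ± 0.06 with shRNA 2 (adjusted p = 0.000322), and the shRNAs differed by 1.23 ± 0.07 (adjusted p = 2e-13). HNRNPUL1 exons overlap TGFB1 on the other strand.

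HNRNPA1L3, annotated as protein-coding and a near copy of HNRNPA1, can share reads with HNRNPA1, so its values are uncertain. It had 16.1 ± 1.42, 8.16 ± 0.824 and 20.3 ± 2.25 CPM (SD, n = 4) in the control, shRNA 1 and shRNA 2 groups. Its log2 changes were −0.98 ± 0.13 and 0.33 ± 0.12 SE (edgeR adjusted p = 6.55e-07 and 0.0277). The call with shRNA 2 was lost without control replicate 2 or shRNA 2 replicate 1, 3 or 4 (log2 0.28, 0.33, 0.33 and 0.27, adjusted p = 0.0929, 0.0524, 0.0543 and 0.111). HNRNPA1L2, the other copy, was at 6.61, 7.28 and 8.69 CPM on average in these groups.

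HNRNPA3 (ENSG00000170144) and HNRNPU were lower with both shRNAs. HNRNPA3, a relative of HNRNPA1, had 514, 530, 580 and 546 CPM in control, 340, 315, 326 and 336 with shRNA 1, and 369, 353, 348 and 358 with shRNA 2. All knockdown libraries lay below all controls. Its log2 changes were −0.72 ± 0.06 and −0.60 ± 0.06 SE (edgeR adjusted p = 3.15e-10 and 1.03e-08), and the difference between the shRNAs did not pass (log2 0.12, adjusted p = 0.0843). HNRNPU, a nuclear scaffold protein, had 798 ± 38.8, 522 ± 46.6 and 619 ± 13.7 CPM (SD, n = 4), with log2 changes of −0.61 ± 0.07 and −0.37 ± 0.06 (adjusted p = 2.77e-08 and 5.55e-05). Its exons overlap COX20 on the other strand. HNRNPLL (ENSG00000143889), a regulator of the alternative exons of PTPRC (CD45) in lymphocytes, was the single hnRNP gene higher with shRNA 1. Its CPM were 34.9, 31.9, 33.1 and 41.2 in control, 54.6, 57.2, 51.0 and 48.3 with shRNA 1, and 50.1, 54.6, 53.0 and 49.9 with shRNA 2. Both knockdown groups lay above the control and overlapped each other, at log2 0.58 ± 0.09 and 0.55 ± 0.09 SE (edgeR adjusted p = 5.24e-06 and 1.31e-05).

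HNRNPC, which binds uridine tracts, was at 477, 234 and 418 CPM on average in the control, shRNA 1 and shRNA 2 groups (log2 −1.03 with shRNA 1). HNRNPM, HNRNPAB, HNRNPL, HNRNPA2B1, HNRNPD, HNRNPR, HNRNPK and HNRNPUL2 were lower with shRNA 1 by log2 −0.50 to −0.87. All of these were higher with shRNA 2 than with shRNA 1, although the difference for HNRNPUL2 (edgeR adjusted p = 0.029) was lost without shRNA 1 replicate 4 or shRNA 2 replicate 1 or 3 (0.0528, 0.0517 and 0.086). HNRNPA0 was lower with shRNA 1 and higher with shRNA 2 (log2 −0.25 and 0.37), but its shRNA 1 libraries overlapped the control. Its call with shRNA 1 was lost with no scaling beyond library totals (log2 −0.05, edgeR adjusted p = 0.515). It was also lost with shRNA 1 replicates 3 and 4 alone (log2 −0.14, edgeR adjusted p = 0.0619). HNRNPDL was lower with shRNA 1 (log2 −0.22), which was lost without control replicate 4 or shRNA 1 replicate 1 or 2 (adjusted p = 0.0567, 0.0562 and 0.101). In the F and H family, whose members bind G-rich RNA, none of HNRNPF, HNRNPH1, HNRNPH2 and HNRNPH3 passed with shRNA 1, with log2 changes of −0.07, −0.02, −0.15 and −0.13. With shRNA 2, HNRNPH3 was higher (log2 0.37, edgeR adjusted p = 0.000879) and HNRNPH2 lower (log2 −0.27, adjusted p = 0.00589).

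SR proteins were mixed: of 10 tested, 6 were lower and 2 higher with shRNA 1, and 3 were lower and 2 higher with shRNA 2. That is 80.0% and 50.0% called, beside 57.3% and 50.0% of all genes, so the share with shRNA 2 was that of all genes. SRSF1 (ENSG00000136450), the founding SR protein, had 312, 318, 359 and 313 CPM in control, 146, 142, 157 and 173 with shRNA 1, and 240, 228, 234 and 241 with shRNA 2. The groups formed 3 separate steps, with control replicate 3 above the other controls. The log2 change was −1.08 ± 0.07 SE with shRNA 1 (47.4% of control, edgeR adjusted p = 5.23e-12) and −0.46 ± 0.07 with shRNA 2 (72.5%, adjusted p = 4.64e-06), and the shRNAs differed by 0.61 ± 0.07 (adjusted p = 5.7e-08).

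SRSF5 (ENSG00000100650) went the other way and varied most among the shRNA 1 libraries. Its CPM were 73.3, 86.9, 83.3 and 87.2 in control, 130, 144, 210 and 262 with shRNA 1, and 88.9, 112, 106 and 85.7 with shRNA 2. All shRNA 1 libraries were above all others, although they ranged widely among themselves, with replicates 3 and 4 highest. SRSF5 was higher with shRNA 1 by log2 1.17 ± 0.21 SE (edgeR adjusted p = 0.000564) and lower with shRNA 2 than with shRNA 1 by log2 −0.92 ± 0.20 (adjusted p = 0.00252). With shRNA 1 replicates 3 and 4 alone the increase was log2 1.51 ± 0.11, and with 1 and 2 alone 0.72 ± 0.09 (edgeR adjusted p = 7.28e-09 and 2.39e-07). Against control, shRNA 2 gave log2 0.25 ± 0.21 (adjusted p = 0.351). With the spread estimated from these 2 groups alone it passed, at the same log2 value (adjusted p = 0.0092), as it did with shRNA 1 replicates 3 and 4 or 1 and 2 alone (edgeR adjusted p = 0.0346 and 0.0082).

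SRSF4 (ENSG00000116350) and SRSF6 (ENSG00000124193), which are close relatives of SRSF5, moved in different directions with both shRNAs. SRSF4 had 79.0, 80.7, 76.9 and 78.5 CPM in control, 94.1, 92.8, 85.1 and 101 with shRNA 1, and 103, 121, 117 and 100 with shRNA 2. All 8 knockdown libraries stood above the control, at log2 0.24 ± 0.07 and 0.49 ± 0.07 SE (edgeR adjusted p = 0.00669 and 7.07e-06). SRSF6 had 323 ± 6.80, 235 ± 9.12 and 256 ± 4.54 CPM (SD, n = 4) in the control, shRNA 1 and shRNA 2 groups, at log2 −0.46 ± 0.06 and −0.33 ± 0.06 (adjusted p = 2.29e-07 and 2.71e-05). SRSF10 (ENSG00000188529), an SR-like protein that represses splicing when dephosphorylated, had 168, 182, 187 and 184 CPM in control, 148, 144, 145 and 149 with shRNA 1, and 197, 218, 215 and 187 with shRNA 2. The shRNA 1 libraries lay below the control and the shRNA 2 libraries at or above its highest. Its log2 changes were −0.30 ± 0.06 and 0.18 ± 0.06 (edgeR adjusted p = 0.000278 and 0.0206). The call with shRNA 2 was lost without control replicate 1 or shRNA 2 replicate 2 or 3 (log2 0.15, 0.15 and 0.16, adjusted p = 0.0728, 0.0851 and 0.0763), and that with shRNA 1 with no scaling beyond library totals (log2 −0.11, adjusted p = 0.145).

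Of the remaining SR proteins, SRSF3, SRSF7 and SRSF9 were lower with shRNA 1 (log2 −0.50, −0.53 and −0.53) and higher with shRNA 2 than with shRNA 1. SRSF7 had 80.2, 70.6, 110 and 122 CPM in the shRNA 1 libraries, and its log2 change was −0.26 with replicates 3 and 4 alone and −0.88 with 1 and 2 alone (edgeR adjusted p = 0.00275 and 2.45e-10). SRSF11 was lower only in the comparisons of shRNA 2, by log2 −0.33 against control and −0.37 against shRNA 1. SRSF2, which carries recurrent mutations in myeloid neoplasms, did not pass in any comparison with all 4 replicates (log2 −0.30 and 0.10 against control, edgeR adjusted p = 0.136 and 0.662). Its shRNA 1 libraries were split, at 62.1, 62.0, 95.3 and 112 CPM. With shRNA 1 replicates 1 and 2 alone SRSF2 was lower than control (log2 −0.72, edgeR adjusted p = 8.49e-09). With replicates 3 and 4 alone it did not pass (log2 0.02, edgeR adjusted p = 0.843). SRSF12 was too low to test.

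**Figure D4:**
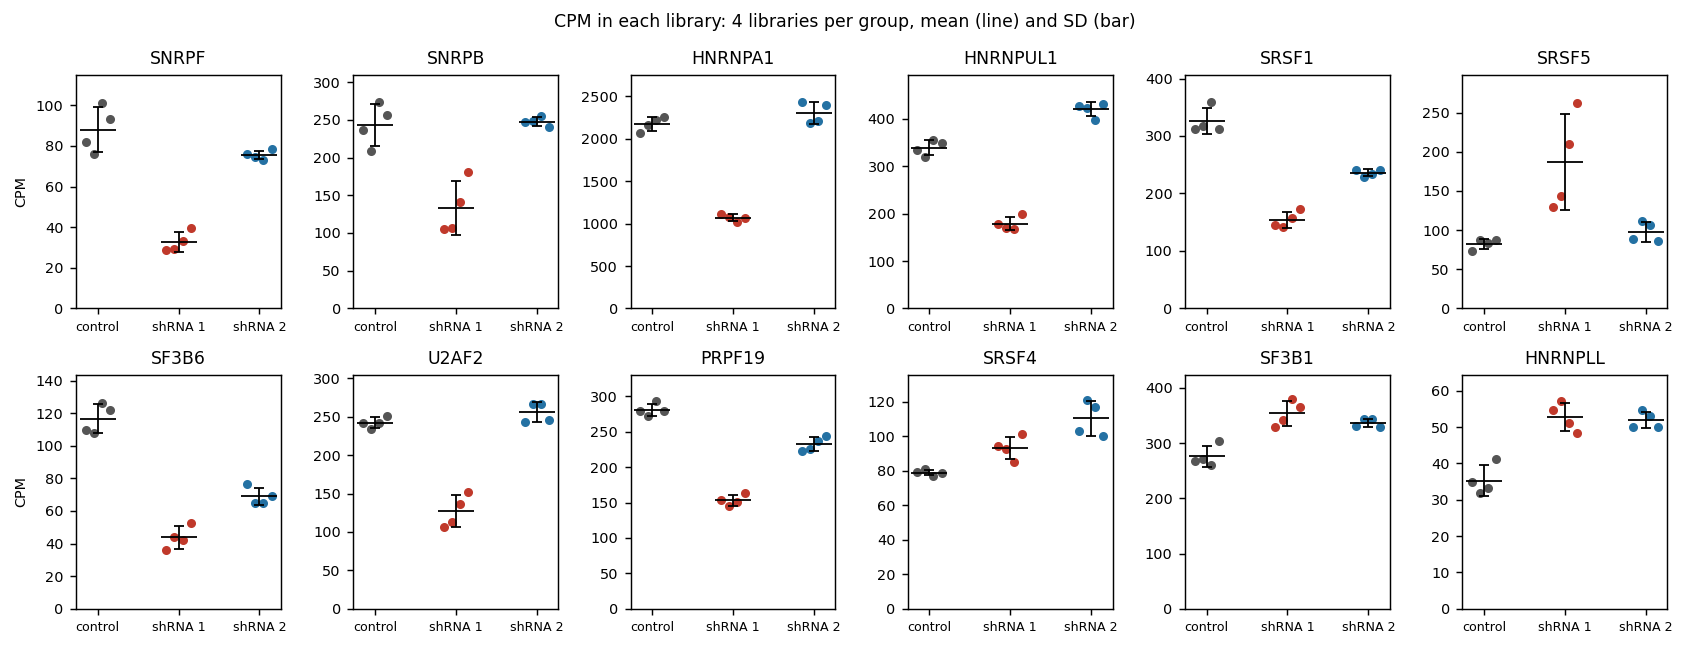
CPM (y axis, from 0) of 12 members in each of the 12 libraries, points for libraries, lines for the mean and bars for the SD of 4. SNRPB, HNRNPA1 and U2AF2 were low in the shRNA 1 libraries alone, SNRPF was lowest there, SRSF1, SF3B6 and PRPF19 took intermediate levels with shRNA 2, and SRSF4, SF3B1 and HNRNPLL were above control in both knockdown groups.

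Subunits of SF3 and U2AF, which recognise the branch point and the 3′ splice site, were called in both directions. With shRNA 1, 5 of 12 were lower and 4 higher, 75.0% called against 57.3% of all genes. With shRNA 2, 2 were lower and 4 higher, 50.0% called, the share of all genes. SF3B6 (ENSG00000115128), the subunit that lies at the branch point adenosine, had 110, 108, 126 and 122 CPM in control, 35.9, 44.1, 42.3 and 52.8 with shRNA 1, and 76.4, 65.0, 64.8 and 69.4 with shRNA 2. The 3 groups did not overlap, with shRNA 2 between the others. The log2 changes were −1.41 ± 0.09 and −0.76 ± 0.09 SE (37.6% and 59.2% of control, edgeR adjusted p = 1.47e-11 and 3.78e-07), and the shRNAs differed by 0.66 ± 0.09 (adjusted p = 2.58e-06). SF3B3 (ENSG00000189091), a scaffold subunit of SF3B, had 427, 426, 463 and 436 CPM in control, 255, 231, 204 and 191 with shRNA 1, and 279, 256, 261 and 281 with shRNA 2. It too fell in steps, by log2 −0.99 ± 0.08 and −0.70 ± 0.07 SE (edgeR adjusted p = 1.05e-10 and 4.61e-08).

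SF3B1 (ENSG00000115524), the largest SF3B subunit and the one that holds the branch helix, rose instead. Its CPM were 267, 272, 261 and 303 in control, 330, 341, 379 and 365 with shRNA 1, and 331, 343, 343 and 329 with shRNA 2. Every knockdown library stood above every control library, at log2 0.36 ± 0.06 and 0.29 ± 0.06 SE (edgeR adjusted p = 4.01e-05 and 0.000591), and the difference between the shRNAs did not pass (log2 −0.07, adjusted p = 0.343). With no scaling beyond library totals SF3B1 was lower with shRNA 2 than with shRNA 1 (log2 −0.18, edgeR adjusted p = 0.0189). SF3A1, SF3A2 and SF3B2 were also higher with shRNA 1 (log2 0.46, 0.31 and 0.29), but not with shRNA 2 against control. SF3A3, the third SF3A subunit, was lower with shRNA 1 (log2 −0.69, edgeR adjusted p = 1.44e-07). SF3B5, a small SF3B subunit with the highest level per kilobase in its class, had 69.7 ± 4.80, 61.3 ± 5.88 and 78.0 ± 3.34 CPM (SD, n = 4). Its decrease with shRNA 1 was log2 −0.19 ± 0.08 (edgeR adjusted p = 0.0441). The call was lost without control replicate 1 or 3, shRNA 1 replicate 1 or 3, or shRNA 2 replicate 1 or 4 (log2 −0.12 without shRNA 1 replicate 1, adjusted p = 0.15), and the value became 0.01 (adjusted p = 0.925) with no scaling beyond library totals.

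U2AF2 (ENSG00000063244), the large U2AF subunit that binds the polypyrimidine tract, had 242, 234, 242 and 251 CPM in control, 107, 113, 136 and 152 with shRNA 1, and 243, 267, 267 and 246 with shRNA 2. Only the shRNA 1 libraries stood apart. The log2 change was −0.94 ± 0.08 SE with shRNA 1 (52.3% of control, edgeR adjusted p = 2.71e-09) and 0.08 ± 0.08 with shRNA 2 (adjusted p = 0.46). Its partner U2AF1, which reads the AG at the intron end, gave log2 −0.17 with shRNA 1 (adjusted p = 0.0751) and was higher with shRNA 2 (log2 0.30, edgeR adjusted p = 0.00254). U2AF1L4 was near the lower limit of testing, at 0.515, 0.945 and 1.24 CPM on average, and its call with shRNA 2 (log2 1.26, adjusted p = 0.0485) was lost in 11 of 18 alternative settings.

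Fewer of the PRPF proteins passed: with shRNA 1, 5 of 13 were lower and 1 higher, 46.2% called against 57.3% of all genes; with shRNA 2, 2 were lower and 2 higher, 30.8% against 50.0%. PRPF19 (ENSG00000110107), the ubiquitin ligase at the core of a complex that activates the spliceosome, had 280, 272, 293 and 280 CPM in control, 153, 145, 151 and 163 with shRNA 1, and 223, 226, 237 and 244 with shRNA 2. The 3 groups were separate and tight. The log2 changes were −0.88 ± 0.06 and −0.27 ± 0.06 SE (54.4% and 82.7% of control, edgeR adjusted p = 1.73e-11 and 0.000486), and the shRNAs differed by 0.60 ± 0.06 (adjusted p = 8.22e-09). PRPF31 (ENSG00000105618), a tri-snRNP protein mutated in retinitis pigmentosa, had 31.5, 26.2, 32.9 and 31.6 CPM in control, 17.1, 21.9, 20.1 and 24.3 with shRNA 1, and 32.1, 35.6, 32.9 and 32.4 with shRNA 2. The shRNA 1 libraries lay below all others. It was lower with shRNA 1 (log2 −0.56 ± 0.11 SE, edgeR adjusted p = 0.00012) and not with shRNA 2 (log2 0.12 ± 0.11, adjusted p = 0.373). PRPF31 exons overlap TFPT on the other strand.

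Of the tri-snRNP proteins PRPF3, PRPF4, PRPF6 and PRPF8, all but PRPF6 were lower with shRNA 1 (log2 −0.56, −0.39, 0.03 and −0.34). PRPF18, which acts in the second catalytic step, was the 1 PRPF gene called higher with both shRNAs. It was low, at 6.05 ± 0.700, 7.84 ± 0.939 and 8.77 ± 0.205 CPM (SD, n = 4), with log2 changes of 0.38 ± 0.16 and 0.54 ± 0.16 SE (edgeR adjusted p = 0.0441 and 0.00677). The call with shRNA 1 was lost in 13 of 18 alternative settings. Among them were the fits without control replicate 2, 3 or 4 (adjusted p = 0.0699, 0.0906 and 0.113), without shRNA 1 replicate 2 or 3 (0.107 and 0.0996) and without any 1 of the shRNA 2 replicates (0.0562 to 0.0586).

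Related genes were compared within libraries as log2 ratios of their counts, with a pseudocount of 0.5, which does not depend on scaling. Both genes were tested for 17 of the 20 listed pairs, giving 51 comparisons between groups. The exact two-sided permutation test over 4 against 4 libraries cannot go below p = 0.0286, and after adjustment over the 51 none passed (smallest adjusted p = 0.0583). Unadjusted, 25 of the 51 comparisons were at that smallest exact p, each with no overlap between groups. Levels of single genes over all genes tested did not overlap in 48.3% (shRNA 1 against control), 50.2% (shRNA 2 against control) and 52.7% (between the shRNAs). Ratios of other gene pairs were not computed, so the count is not read as a trait of these pairs. The ratio of SRSF5 to SRSF6 was −2.11, −1.87, −1.97 and −1.92 in control, −0.92, −0.73, −0.14 and 0.23 with shRNA 1, and −1.50, −1.22, −1.27 and −1.57 with shRNA 2. It was above control in all 8 knockdown libraries, by 1.58 and 0.58 on average. The ratio of SRSF4 to SRSF6 was higher by 0.70 with shRNA 1 and 0.81 with shRNA 2, again in 8 of 8 libraries.

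HNRNPL against its relative HNRNPLL was lower by −1.33 and −0.81, from 3.24 ± 0.27 (SD, n = 4) in control to 1.91 ± 0.13 with shRNA 1 and 2.43 ± 0.14 with shRNA 2. HNRNPA0 against HNRNPA3 was higher by 0.47 and 0.98. SRSF1 against SRSF9 was lower by −0.55 and −0.46. HNRNPUL1 against HNRNPUL2 went in opposite directions, −0.43 with shRNA 1 and 0.61 with shRNA 2, as did HNRNPU against HNRNPUL1, 0.31 and −0.67. These pairs share HNRNPUL1, and in both the 3 groups did not overlap. HNRNPAB against HNRNPD and HNRNPF against HNRNPH1 overlapped in every comparison, with differences of at most 0.13 in size. Each of the ratios named here carried an exact permutation p of 0.0286 (adjusted p = 0.0583) where its groups did not overlap.

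**Figure D5:**
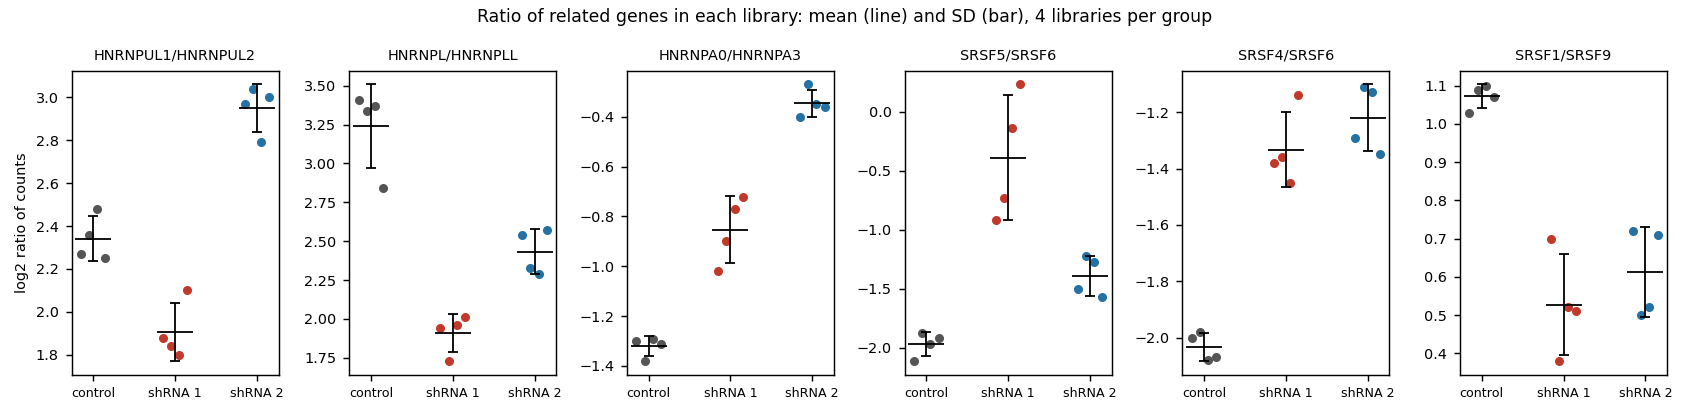
Log2 ratio of counts (y axis, own range in each panel) of 6 related gene pairs in each library, points for libraries, lines for the mean and bars for the SD of 4. SRSF5/SRSF6 and SRSF4/SRSF6 lie above control in both knockdown groups, SRSF1/SRSF9 and HNRNPL/HNRNPLL below it, and HNRNPUL1/HNRNPUL2 falls with shRNA 1 and rises with shRNA 2.

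Levels within the group spanned a wide range. Per kilobase of exon, the median tested member stood at 34.4 CPM in control and the lowest at 0.179. HNRNPA1 (428 ± 16.7, SD, n = 4) and SNRPB (190 ± 22.0) came first, followed by HNRNPA2B1 (123 ± 10.5), HNRNPK (122 ± 9.83) and HNRNPF (115 ± 7.19), which lay within 1 SD of their neighbours. With shRNA 1, HNRNPA1 at 210 ± 7.91 was still highest, and HNRNPF at 110 ± 4.81 stood beside SNRPB at 104 ± 27.8. Members with a higher level per kilobase in the shRNA 2 libraries tended to have a lower log2 change with shRNA 1 against control (Pearson's r = −0.49, Spearman's rho = −0.44, across 68 genes). Over 15325 genes of the table with a length the values were −0.23 and −0.25. These are across genes, which share libraries and depth and are not independent replicates.

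Partners of these proteins outside the 7 prefixes were counted in 6 lists. Of 30 tested U1, U2, tri-snRNP and Sm-like partners, 14 were lower and 6 higher with shRNA 1 and 6 were lower and 8 higher with shRNA 2. The shares called, 66.7% and 46.7%, stood beside 57.3% and 50.0% of all genes. EFTUD2, the GTPase of the U5 particle, was lower with both (378 ± 15.5, 218 ± 18.4 and 267 ± 11.1 CPM, SD, n = 4). ZRSR2, the U2AF1 relative that serves minor introns, was higher with both, at 7.77 ± 0.914, 13.2 ± 1.71 and 10.2 ± 0.883 CPM. Its call with shRNA 2 (log2 0.39, edgeR adjusted p = 0.0285) was lost without control replicate 1, 2 or 4 or shRNA 2 replicate 3 (adjusted p = 0.0529, 0.0792, 0.0684 and 0.0964). Of 18 branch point and 3′ splice site factors, 8 were lower and 4 higher with shRNA 1 and 4 were lower and 6 higher with shRNA 2, 66.7% and 55.6% called. PUF60, a polypyrimidine-binding relative of U2AF2, was lower with both (log2 −0.77 and −0.37), and RBM5, a regulator of early spliceosome assembly, was higher with both (log2 0.60 and 0.43).

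Of 39 catalytic spliceosome and exon junction genes, 13 were lower and 6 higher with shRNA 1 and 5 were lower and 8 higher with shRNA 2. With 48.7% and 33.3% called, both shares were below the 57.3% and 50.0% of all genes. The helicase AQR was higher with both (log2 0.42 and 0.48). CWC27, a cyclophilin of the activated spliceosome, was lower with both (log2 −0.36 and −0.82, edgeR adjusted p = 0.0127 and 4.73e-06); without control replicate 2 the former was log2 −0.29 (adjusted p = 0.0582), and with no scaling beyond library totals −0.17 (0.225). Of 44 other regulatory splicing factors, 23 were lower and 6 higher with shRNA 1 and 17 were lower and 5 higher with shRNA 2, 65.9% and 50.0% called. MBNL3, a muscleblind protein, fell furthest with shRNA 2 among the context genes named, at 72.2 ± 3.40, 34.5 ± 7.53 and 10.6 ± 0.321 CPM (SD, n = 4) in the control, shRNA 1 and shRNA 2 groups.

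Of 18 enzymes that modify these proteins or importins that carry them, 8 were lower and 5 higher with shRNA 1 and 7 were lower and 6 higher with shRNA 2. The share called was 72.2% with each, beside 57.3% and 50.0% of all genes. PRMT1, which methylates arginines of hnRNP proteins, had 240, 216, 244 and 222 CPM in control, 58.8, 64.5, 67.4 and 78.7 with shRNA 1, and 114, 118, 126 and 119 with shRNA 2. The 3 groups were separate, at log2 −1.78 ± 0.08 and −0.95 ± 0.08 SE (29.2% and 51.7% of control, edgeR adjusted p = 8.84e-15 and 4.29e-10). The SR protein kinase SRPK3 was higher with both (log2 1.08 and 1.34) at low levels of 4.42 ± 0.830, 9.45 ± 2.53 and 11.2 ± 0.911 CPM. Of 12 genes of nonsense-mediated decay, which clears many unproductively spliced mRNAs, 6 were lower and 1 higher with shRNA 1 and 4 were lower and none higher with shRNA 2, 58.3% and 33.3% called. SMG5 was lower with both (log2 −0.77 and −0.44).

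Of the 73 members, 5 had too few reads to test: SRSF12, SNRPN, HNRNPCL1, HNRNPCL4 and the readthrough HNRNPUL2-BSCL2, none above 1.06 CPM in any library. Exons of 28 members overlap another gene on the opposite strand and those of 15 overlap one on the same strand, and without a stated strand setting reads of such pairs cannot be told apart. Pseudogenes with the same prefixes, 199 IDs, held counts equal to 0.254% of the members' counts.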

How the data were processed

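RNA-seq values were whole-number read counts per Ensembl gene, not normalised, as deposited by the authors. The submitters' processing notes name STAR 2.7.3a, cutadapt 2.6, DESeq2 and hg19 without roles. The counting tool, annotation and strand setting are details not given in the sources used here. Depth was 12236937 to 20388437 counts per library, and its precision covers counting error only. Replicates are called biological in the labels, which do not say whether transductions were separate, so p-values reflect only variation among these libraries. Replicates differed by more than sampling noise (chi-square per degree of freedom 3.59 to 29.4), most between shRNA 1 replicates 1 and 2 and replicates 3 and 4.

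Symbols came from a list of gene names matched by Ensembl ID, or from GENCODE 29 where that list gave none (45342 of 48162 IDs). Gene models came from GENCODE 29, and all gene models and promoter windows are on GRCh38. Counts of 12 libraries were fitted once with edgeR 4.0.16 (R 4.3.3; TMM, filterByExpr, robust quasi-likelihood F test, 9 residual degrees of freedom, two-sided). Benjamini-Hochberg adjustment ran over all 15834 genes tested at 0.05. The script was tested on simulated data. CPM are TMM-scaled, given as mean ± SD. "Called" means past that threshold; "overlap" compares the 4 libraries of each group. Paralog ratios were tested with exact permutation tests.

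Members and lists were chosen with earlier results of these data known. In each class the text describes, among members of at least 1 CPM on average, up to 3 members called the same way with both shRNAs and up to 2 called oppositely, each by the smaller change, plus the highest per kilobase and the largest shRNA 2 to shRNA 1 difference. Per list, the gene with the largest smaller change in each direction was taken. Other members are named after their values were seen. Alternatives were DESeq2 1.42.0 and its size factors, no filter, only the groups compared, a replicate block, each library left out, and, added after seeing the data, no TMM scaling and shRNA 1 replicates 3 and 4 or 1 and 2 alone. The 3′READS sites carry no gene names and were not used.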

Additional observations from a re-analysis of the deposited data

Results flagged for a closer look

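SRSF1 was 359 CPM in control replicate 3, apart from the other control libraries at 312 to 318 CPM. CWC27 was 30.3 CPM in shRNA 1 replicate 1, apart from the other shRNA 1 libraries at 23.2 to 24.0 CPM. In each the gap to the nearest library exceeded Dixon's 95% critical value for 4 samples. Of 105 gene and group combinations checked, 2 were marked this way, and chance marks about 1 in 20.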

How the results depend on the processing

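Across 18 alternatives, 40 of 51 member calls with shRNA 1 against control, 23 of 32 with shRNA 2 against control and 43 of 50 between the shRNAs were kept under every one. Of 1890 values of named genes under alternatives, 1817 kept direction and side of the threshold, 54 lost the call, 18 gained one and 1 reversed (SF3B5 with shRNA 1, log2 0.01, with no scaling beyond library totals).

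That scaling, chosen after seeing the data, gave member medians of −0.22, 0.09 and 0.27 for shRNA 1 against control, shRNA 2 against control and shRNA 2 against shRNA 1, where all genes had 0.21, 0.082 and −0.13. It left 10 members lower in the last, beside 5617 of all 15834 genes tested. As shares of raw counts, the sum over all members was 102% of control with shRNA 2, and SF3 and U2AF were at 104% with shRNA 1, 102% with shRNA 2 and 97.5% with shRNA 2 against shRNA 1. With no filter the medians were 0.02 for shRNA 2 against control and 0.41 against shRNA 1. The causes were not tested.

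Leaving out each library in turn, member medians ranged from −0.45 to −0.37, −0.02 to 0.04 and 0.33 to 0.42, called members from 46 to 54, 26 to 37 and 47 to 51, and members called in opposite directions from 2 to 7. With shRNA 1 replicates 3 and 4 alone, chosen after seeing the data and not among the 18, the medians were −0.31 with shRNA 1 against control and 0.30 between the shRNAs; with replicates 1 and 2 alone the latter was 0.44, and 9 members were called in opposite directions. The cause was not tested.

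Replicate numbers did not pair the samples: same-numbered libraries correlated at −0.0369 to 0.0893 in their deviations from group means, and 4 of 12 correlated best with their own number. With the replicate block, members were 7 higher and 44 lower, 13 higher and 20 lower, and 46 higher and 6 lower in the 3 comparisons. The calls of PRPF18 with shRNA 1 and of U2AF1L4 and HNRNPA1L2 with shRNA 2 against control, all genes with low counts, were lost in 11 to 13 settings; the cause was not tested.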
